A study of Mus musculus with 12 samples.

Results

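Inhibitory receptors and don't-eat-me signals of sorted mouse brain cells were examined through 10 genes, chosen by name as Siglec and other inhibitory receptors with their ligands and a phosphatase that many of the receptors recruit. They are the receptors *Siglech*, *Cd33*, *Siglece*, *Cd22*, *Lair1*, *Sirpa* and *Cd200r1*, the ligands *Cd47* and *Cd200*, and the phosphatase gene *Ptpn6*. All 10 were found among the 47643 genes of the count table, and all 10 were among the 12270 genes tested, which had at least 10 counts over the 10 samples together. Bulk RNA sequencing covered 5 male p16-3MR mice on a C57BL/6 background, aged 113, 115, 116, 116 and 116 weeks (mice 1 to 5). The name 3MR stands for a reporter with 3 functions, red fluorescence (RFP), light from Renilla luciferase and drug-induced killing through a viral kinase (HSV-1 tTK), and p16 promoter activity switches it on. Each brain was dissociated with a protease in the cold and gave 1 sample of viable, nucleated cells (DAPIneg Draq5pos) without the red signal (RFPneg) and 1 with it (RFPpos), populations that the study calls RFPLow and RFPHigh. Cells of both groups carry the transgene, each sample comes from a single mouse, and the sort used no surface marker, so that every sample is a mixture of brain cell types. The question put to these genes was whether RFPpos differed from RFPneg within mice. The study took both populations from the same mice, and samples are paired here by their number.

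Siglecs bind sialic acids on cell surfaces, and many of them hold a tyrosine motif (ITIM) in the cell that recruits the phosphatase SHP-1, the product of *Ptpn6*, and its relative SHP-2, the product of *Ptpn11*. SIRPα, encoded by *Sirpa*, binds CD47 on a neighbouring cell and holds back its engulfment, while CD200R1 binds CD200, which neurons and endothelial cells carry, and dampens myeloid activation. In the brain these receptors belong mostly to microglia and other myeloid cells, and their ligands mostly to the cells around them. Not all of these receptors signal through an ITIM, since Siglec-H has none and works through the adaptor DAP12, the product of *Tyrobp*, mouse CD33 lacks the usual one, and CD200R1 works through Dok adaptors.

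The libraries count 1 tag near the 3′ end of each transcript, and levels are given as counts per 1000000 counts on genes (CPM), with no division by length. Totals on genes in mice 1 to 5 were 177287, 196103, 415834, 248471 and 299680 counts in RFPneg and 222560, 289713, 223052, 250482 and 242798 in RFPpos, so that 1 count stands for 2.40 to 5.64 CPM. The share of counts that fell on no gene was higher in RFPpos in 5 of 5 mice, at 32.1 to 37.2% in RFPneg and 38.4 to 48.6% in RFPpos, with mouse 5 the highest in both populations. The number of genes with counts was lower in RFPpos in 5 of 5 mice, at 11797 to 14272 in RFPneg and 10308 to 12089 in RFPpos. The part of these differences between libraries in the results was not tested. As a look at the pairing, log2 CPM of 1610 genes with a mean of at least 100 CPM was set against its group mean. These deviations correlated between the 2 samples of mice 1 to 5 at 0.31, −0.06, 0.27, 0.01 and 0.02, near 0 in mice 2, 4 and 5. The 10 genes differed widely in depth, from 26 counts in all 10 samples for *Siglece* to 2261 for *Siglech*.

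Of the 10 genes, 5 were higher in RFPpos (*Siglech*, *Cd33*, *Lair1*, *Sirpa* and *Ptpn6*) at an adjusted p under 0.05, where 4.27% of all tested genes were under TMM scaling. The test was edgeR's quasi-likelihood test with the mouse as a block. None of the 10 was higher relative to a list of 20 microglia genes, where only 0.114% of all tested genes were. The count of 5 was the same with median-of-ratios and library size scaling. With TMM, median-of-ratios and library size scaling 1 gene, *Cd200*, was lower, against 7.49% of all tested genes under TMM. The other 4, *Siglece*, *Cd22*, *Cd47* and *Cd200r1*, were not called. When an absolute log2 fold change above 1 was also asked for, 4 were higher (2.80% of all genes) and 1 was lower (6.75% of all genes), *Cd33* being the gene that dropped out. The median log2 fold change of the 10 genes was 1.07, against −0.15 over all tested genes. The genes were chosen with earlier results of these data known, so these contrasts with all genes are descriptions and not a test of the set. *Siglech*, *Cd33*, *Lair1*, *Sirpa* and *Ptpn6* were each higher in RFPpos in 5 of 5 mice, and *Cd200* was lower in 5 of 5. How many of all tested genes moved 1 way in 5 of 5 mice, or had groups without overlap, was not counted. Such separation is therefore not read as particular to these genes. In these bulk samples, fewer cells of a type and less RNA per cell cannot be told apart.

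**Figure D1:**
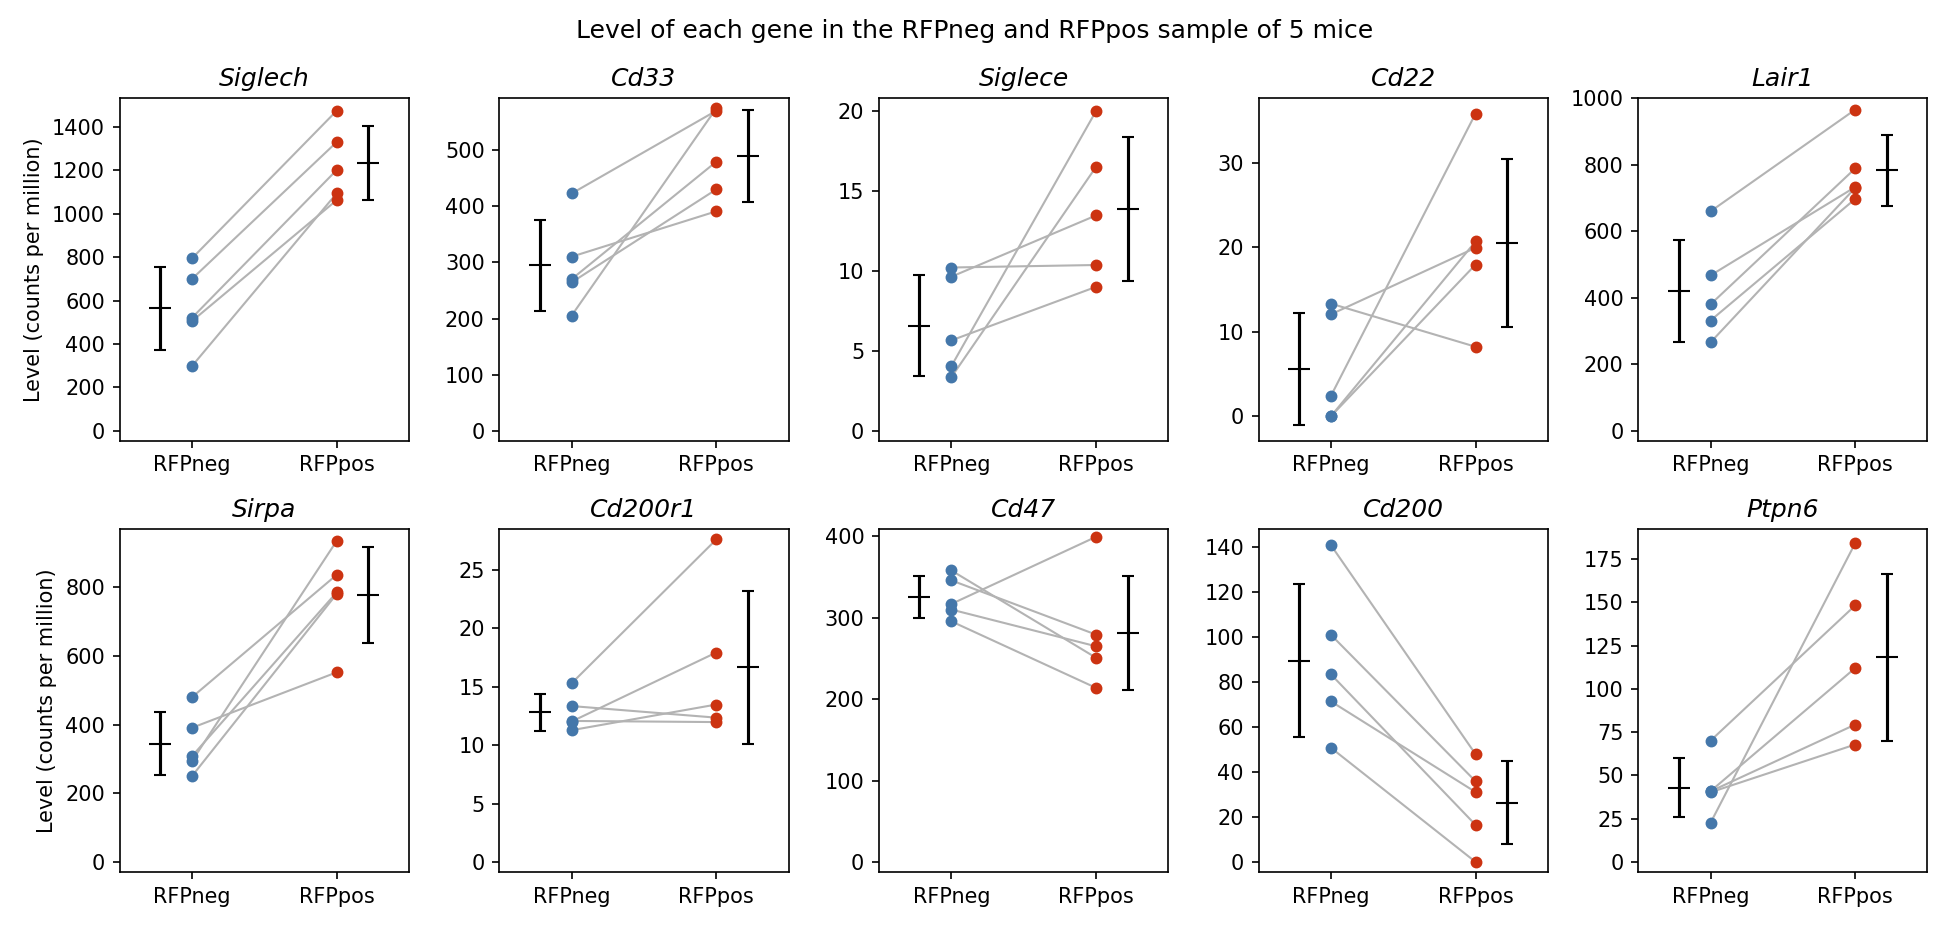
Level of each of the 10 genes in CPM (vertical axes, each starting at or just under 0) in the RFPneg (blue) and RFPpos (red) sample of 5 mice, with grey lines joining samples of 1 mouse and black bars giving the mean and SD over 5 samples. The RFPpos points of *Siglech*, *Lair1* and *Sirpa* lie above every RFPneg point and those of *Cd200* below. The share of all tested genes that separate in this way was not counted. The points of *Cd33*, *Ptpn6*, *Cd47*, *Cd200r1*, *Siglece* and *Cd22* overlap.

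Among the Siglec receptors, *Siglech* (ENSMUSG00000051504, chromosome 7, 55768178 to 55778925, plus strand on GRCm38) had the most counts. Its levels in mice 1 to 5 were 699, 520.1, 505, 298 and 794 CPM in RFPneg and 1330.0, 1201, 1063, 1094 and 1474 CPM in RFPpos. Every RFPpos sample was above every RFPneg sample, and mouse 5 had the highest level in both populations. The means were 563 ± 192 CPM in RFPneg and 1232 ± 171 CPM in RFPpos (SD, n = 5 each), and *Siglech* rose in 5 of 5 mice (log2 fold change 1.26, standard error 0.20, adjusted p = 6.13e-09 from edgeR). *Cd33* (ENSMUSG00000004609, chromosome 7, 43524216 to 43544428, minus strand), a Siglec of myeloid cells whose human counterpart is a risk locus of Alzheimer's disease, had 423, 270.3, 265, 205 and 310.3 CPM in RFPneg and 571, 479.8, 430.4, 575 and 391 CPM in RFPpos. The groups overlapped through 1 pair of values, since the RFPneg sample of mouse 1 was above the RFPpos sample of mouse 5. *Cd33* rose under TMM (log2 fold change 0.83, standard error 0.21, adjusted p = 0.00142) and had the smallest change of the 5, which turned to −0.35, not called, relative to the microglia list.

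*Lair1* (ENSMUSG00000055541, chromosome 7, 4003402 to 4063204, minus strand), an inhibitory receptor for collagens and collagen-like proteins, had 659.9, 331, 380.0, 266 and 467 CPM in RFPneg and 966, 697, 789, 731 and 733 CPM in RFPpos. The groups did not overlap, although the RFPneg sample of mouse 1 came close to the lowest RFPpos sample. *Lair1* rose under TMM (log2 fold change 1.03, standard error 0.20, adjusted p = 9.67e-06), and its log2 fold change was −0.14, not called, relative to the microglia list. *Sirpa* (ENSMUSG00000037902, chromosome 2, 129592835 to 129632228, plus strand), the receptor for CD47, had 479, 249.9, 308, 294 and 390.4 CPM in RFPneg and 836, 780.1, 785, 934 and 552 CPM in RFPpos. Here too every RFPpos sample was above every RFPneg sample, with mouse 5 the lowest RFPpos sample. *Sirpa* rose as well (log2 fold change 1.26, standard error 0.20, adjusted p = 3.45e-08).

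The 20 microglia genes, which hold none of the 10, moved with these receptors. Their summed level in mice 1 to 5 was 22602, 15069, 16179.5, 14742 and 20866 CPM in RFPneg and 42968, 37419.8, 39323, 37739 and 32056 CPM in RFPpos. The RFPpos sum was the higher one in every mouse, and no RFPneg sum reached the lowest RFPpos sum. All 20 genes were higher in RFPpos at an adjusted p under 0.05 (19 without mouse 2 or 4) and none was at 0, with log2 fold changes from 0.71 for *Tyrobp* to 1.72 for *Fcrls*, an Fc receptor-like gene of microglia, and *Ctss*, a lysosomal protease gene, as the most abundant (6928 CPM on average). The median of the list, 1.28, was above the changes of *Cd33*, *Lair1*, *Sirpa* and *Siglech* and below that of *Ptpn6*.

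Relative to the summed counts of this list, none of the 10 genes was called higher in edgeR, where 0.114% of all genes were, and 2 were called lower, *Cd47* and *Cd200*, where 47.0% were. None was higher at an unadjusted p under 0.05 either, or by DESeq2 or limma. This scaling moved the median log2 fold change of all tested genes by −1.14, from −0.15 to −1.29, and the split of calls from 524 higher and 919 lower (36.3% higher) to 14 higher and 5767 lower (0.242% higher), so that a gene called lower here is in the company of nearly every other call. The median over the 10 genes became −0.08. For the receptors the interval held 0 in each case, at 0.09 (95% interval −0.31 to 0.50, adjusted p = 0.716) for *Siglech* (−0.0084 without mouse 4) and 0.09 (95% interval −0.34 to 0.52, adjusted p = 0.739) for *Sirpa*. *Lair1* had −0.14 (95% interval −0.56 to 0.28, adjusted p = 0.586). *Cd33* had −0.35 (95% interval −0.79 to 0.10, adjusted p = 0.195), the lowest of the called receptors. An interval that holds 0 does not show that a receptor and the list changed alike.

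**Figure D2:**
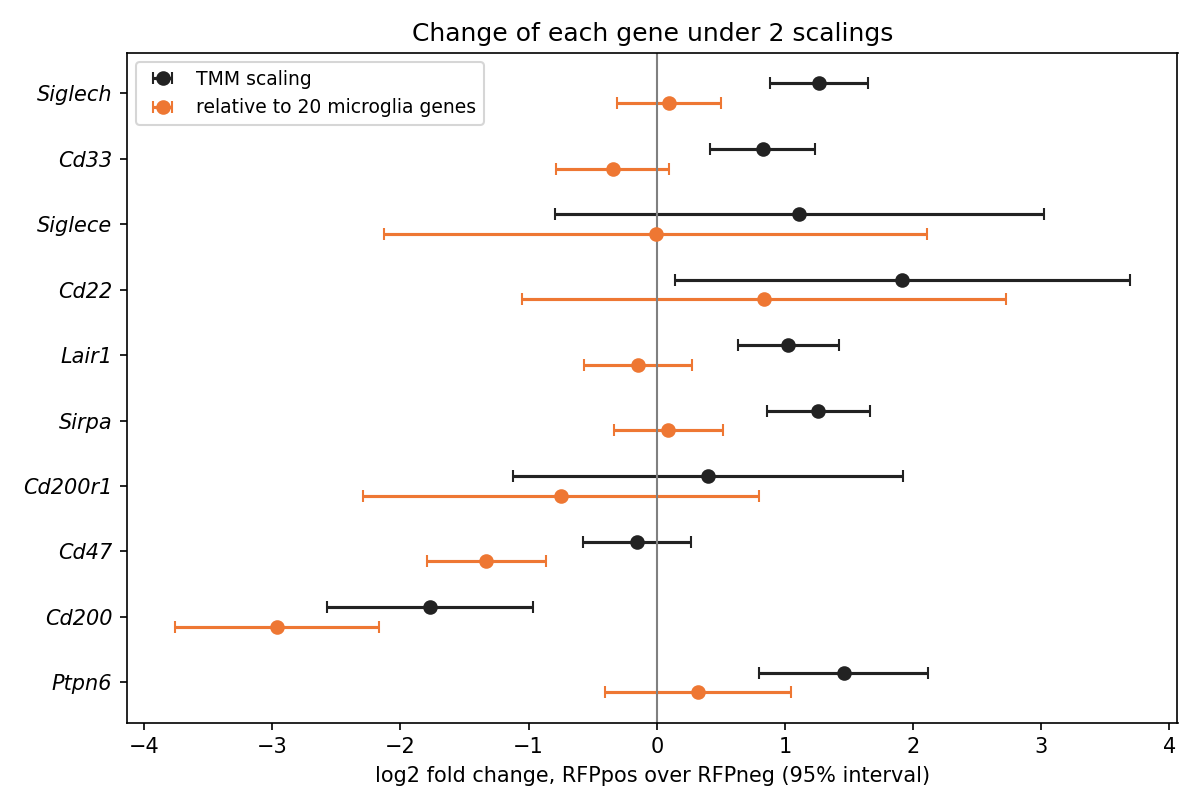
log2 fold change of each gene in RFPpos over RFPneg (horizontal axis), n = 5 mice, under TMM scaling (black) and relative to the summed counts of 20 microglia genes (orange). The 95% intervals were derived from the F statistic of edgeR's quasi-likelihood test. *Siglech*, *Cd33*, *Lair1*, *Sirpa* and *Ptpn6* lie above 0 under TMM and have intervals that hold 0 relative to the microglia genes, where *Cd33* and *Lair1* are below 0 in place of above it, while *Cd47* lies near 0 under TMM and at −1.33 relative to them.

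The other receptors were weak. *Siglece* (ENSMUSG00000030474, chromosome 7, 43651070 to 43660161, minus strand), an ITIM-bearing Siglec of myeloid cells, had 1, 2, 4, 1 and 1 counts in RFPneg and 2, 3, 3, 5 and 4 counts in RFPpos. The CPM was higher in RFPpos in 5 of 5 mice and the groups overlapped, and *Siglece* did not pass (log2 fold change 1.11, 95% interval −0.79 to 3.02, adjusted p = 0.593). *Cd22* (ENSMUSG00000030577, chromosome 7, 30865402 to 30880342, minus strand), a Siglec best known from B cells, had 0, 0, 1, 3 and 4 counts in RFPneg and 4, 6, 8, 5 and 2 counts in RFPpos. A count of 0, as in mice 1 and 2, allows up to 3 counts, which is 16.9 and 15.3 CPM there. *Cd22* was higher in RFPpos in 4 of 5 mice, mouse 5 being the exception, and did not pass (log2 fold change 1.91, 95% interval 0.14 to 3.69, adjusted p = 0.179). Without mouse 5 its log2 fold change was 2.71 (adjusted p = 0.0587) and without mouse 3 it was 1.47 (adjusted p = 0.550), and over the alternatives to the TMM fit the adjusted p ran from 0.0587 to 0.550. *Cd200r1* (ENSMUSG00000022667, chromosome 16, 44765736 to 44794978, plus strand) had 2, 3, 5, 3 and 4 counts in RFPneg and 3, 8, 4, 3 and 3 in RFPpos. Its groups overlapped (log2 fold change 0.40, 95% interval −1.12 to 1.92, adjusted p = 0.855), and the estimate was −0.75 relative to the microglia list.

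*Siglech*, *Siglece* and *Cd22* are also markers of other blood cells, so the lists of those cells are set beside them. Of the 10 plasmacytoid dendritic cell genes, 6 were tested and none was called in either direction by edgeR (0 also at an unadjusted p under 0.05 and with DESeq2 and limma), *Klk1* was at 0 in every sample, and *Tcf4*, which other brain cells share, was the most abundant. Their summed level was 1286, 1239, 1212, 1356 and 1315 CPM in RFPneg and 854, 1101, 1188, 1102 and 1124 CPM in RFPpos, lower in RFPpos in 5 of 5 mice. That difference lay in *Tcf4* (901 ± 82.1 to 691 ± 78.7 CPM), while *Bst2*, the next most abundant and named after its values were seen, had 336 ± 73.4 and 359 ± 115 CPM (SD, n = 5 each) and the other genes had few counts. Of 9 neutrophil genes, 7 were tested and all 7 of these were lower in RFPpos (6 with DESeq2). Their sum was 2572, 2794, 7248, 4359 and 2403 CPM in RFPneg and 49.4, 124, 197, 0 and 0 CPM in RFPpos, with *S100a8* as the most abundant gene and *Ltf* and *Cxcr2* at 0 in RFPpos. The neutrophil genes together had 456, 548, 3014, 1083 and 720 counts in RFPneg, where *Siglece* had 1, 2, 4, 1 and 1. In RFPpos they had 11, 36, 44, 0 and 0 counts, where *Siglece* had 2, 3, 3, 5 and 4. Of 9 B cell genes, 7 were tested, 1 was higher (*Bank1*, 1.67, singled out after its value was seen) and 2 were lower in RFPpos. The B cell sum was lower in RFPpos in 5 of 5 mice, with 750.2, 709, 685, 853 and 1008 CPM in RFPneg and 251.6, 262, 238, 375 and 379 CPM in RFPpos, with *Cd79a* and *Pax5* at 0 in RFPpos. The lower genes were *Igkc* (308 to 1.59 CPM) and *Ebf1* (217 to 3.18 CPM), named after their values were seen, while *Ighm*, the most abundant gene, was not called (222.5 ± 80.9 to 206 ± 34.9 CPM, log2 fold change 0.02, adjusted p = 0.981). The part of these cells in the values of the 3 receptors was not tested.

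Neither ligand rose. *Cd47* (ENSMUSG00000055447, chromosome 16, 49800533 to 49915010, plus strand), whose product is found on most cells, had 310.2, 296, 358, 346 and 317 CPM in RFPneg and 265, 214, 251, 279 and 399.5 CPM in RFPpos. The RFPneg samples lay close together, 4 RFPpos samples were below all of them, and the RFPpos sample of mouse 5 was above all of them. *Cd47* was not called (means 325 ± 25.9 CPM in RFPneg and 282 ± 70.1 CPM in RFPpos (SD, n = 5 each), log2 fold change −0.16, standard error 0.22, adjusted p = 0.777), and its log2 fold change was −0.31 without mouse 5 and −0.04 without mouse 3, the ends of the range over mice left out. Its 95% interval with all mice, −0.58 to 0.27, lay below the estimates of *Siglech*, *Cd33*, *Lair1* and *Sirpa*. Relative to the microglia list, where the median of all tested genes was −1.29, *Cd47* was near that median as it was under TMM (−0.16 against −0.15), and was called lower with most other calls, at −1.33 (95% interval −1.79 to −0.87, adjusted p = 2.46e-07, lower in 5 of 5 mice), with adjusted p from 5.80e-10 to 0.000235 over the alternatives of that fit. Per 10000 counts on that list *Cd47* had 137 to 235 counts in RFPneg and 57.2 to 125 in RFPpos, with no overlap, which is read against the same shift of all genes, while *Sirpa* had 166 to 212 and 172 to 248, which overlap.

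*Cd200* (ENSMUSG00000022661, chromosome 16, 45382135 to 45409053, minus strand), the ligand of CD200R1, had 50.8, 71.4, 101, 141 and 83.4 CPM in RFPneg and 0, 31.1, 35.9, 47.9 and 16.5 CPM in RFPpos. No RFPpos sample reached the lowest RFPneg sample, and mouse 1 had the lowest level in both populations, its RFPpos value of 0 allowing up to 13.5 CPM. *Cd200* fell (89.5 ± 34.0 CPM in RFPneg and 26.3 ± 18.5 CPM in RFPpos (SD, n = 5 each), log2 fold change −1.77, standard error 0.41, adjusted p = 0.000331), and it was also lower relative to the microglia list, at −2.96 (95% interval −3.76 to −2.17, adjusted p = 1.04e-11, with a range of 5.78e-12 to 1.88e-05 over alternatives). Endothelial and neuronal lists, from cells that carry CD200, were also lower in RFPpos in 5 of 5 mice by their sums. The 10 endothelial genes summed to 1653, 5461, 5627, 7264 and 4315 CPM in RFPneg and 112, 193, 229, 359 and 239 CPM in RFPpos, all 10 were lower, *Flt1* was the most abundant and *Emcn* was at 0 in every RFPpos sample. The 7 neuronal genes summed to 237, 352, 387, 447 and 387 CPM in RFPneg and 216, 72.5, 175, 43.9 and 173 CPM in RFPpos, with 3 lower (1 with DESeq2 and 4 with limma), 4 not called, none at 0 over all samples and *Meg3* the most abundant. *Cd200* and the endothelial sum were lowest in mouse 1 and highest in mouse 4 in both populations. The neuronal sum had that order in RFPneg, and in RFPpos the opposite one, highest in mouse 1 and lowest in mouse 4. The part of these cells in the level of *Cd200* was not tested.

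*Ptpn6* (ENSMUSG00000004266, chromosome 6, 124720707 to 124738714, minus strand), which encodes the phosphatase SHP-1 of blood cells and microglia, had 22.6, 40.8, 40.9, 40.2 and 70.1 CPM in RFPneg and 184, 79.4, 112, 67.9 and 148 CPM in RFPpos. Each mouse was higher in RFPpos and the groups overlapped, since the RFPneg sample of mouse 5 was just above the RFPpos sample of mouse 4. *Ptpn6* rose (42.9 ± 17.1 CPM in RFPneg and 118 ± 48.3 CPM in RFPpos (SD, n = 5 each), log2 fold change 1.46, standard error 0.34, adjusted p = 0.000332), and relative to the microglia list it had 0.32 (95% interval −0.41 to 1.04, adjusted p = 0.474), a value that was −0.0258 without mouse 1. An antisense gene overlaps *Ptpn6* on the opposite strand, and another overlaps *Cd22*, and the strand setting of the counting is not given in the sources. *Ptpn11*, whose product SHP-2 is made in most cell types, had 42.8 ± 11.4 CPM in RFPneg and 30.5 ± 6.67 CPM in RFPpos (SD, n = 5 each) and was not called (log2 fold change −0.38, adjusted p = 0.753).

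Ratios of 2 genes within a sample do not depend on how libraries are scaled, and 3 were compared by an exact permutation test that exchanged the populations within mice. Such ratios still depend on the mix of cells, and the microglia list summed to 17891.5 CPM in RFPneg and 37901 CPM in RFPpos on average. The part of that mix in the ratios was not tested. The log2 ratio of *Sirpa* to *Cd47* was 0.61, −0.23, −0.22, −0.23 and 0.29 in RFPneg and 1.62, 1.83, 1.61, 1.71 and 0.46 in RFPpos. It was higher in RFPpos in 5 of 5 mice, by 1.40 ± 0.81 on average (SD, n = 5 mice), with mouse 5 the least and inside the range of RFPneg. The log2 ratio of *Cd200r1* to *Cd200* was −1.46, −1.68, −2.65, −2.89 and −2.17 in RFPneg and 1.32, −0.14, −0.74, −1.49 and −0.26 in RFPpos. It was higher in 5 of 5 mice by 1.91 ± 0.54 (SD, n = 5 mice), and rests on few counts of the receptor and on 0 counts of *Cd200* in the RFPpos sample of mouse 1, where the prior count sets the ratio. With a prior count of 0.5 in place of 2 the mean difference was 2.46, and without mouse 1 it was 1.69. The log2 ratio of *Ptpn6* to *Ptpn11* was −1, 0, 0.55, 0 and 0.44 in RFPneg and 2.43, 0.84, 1.58, 1.25 and 2.08 in RFPpos. The groups did not overlap, and the difference was 1.64 ± 1.04 (SD, n = 5 mice), or 1.84 with a prior count of 0.5 and 1.19 without mouse 1. For each ratio 2 of the 32 assignments were as large, a two-sided p of 0.0625 in the exact permutation test, which is the smallest that 5 pairs can give.

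**Figure D3:**
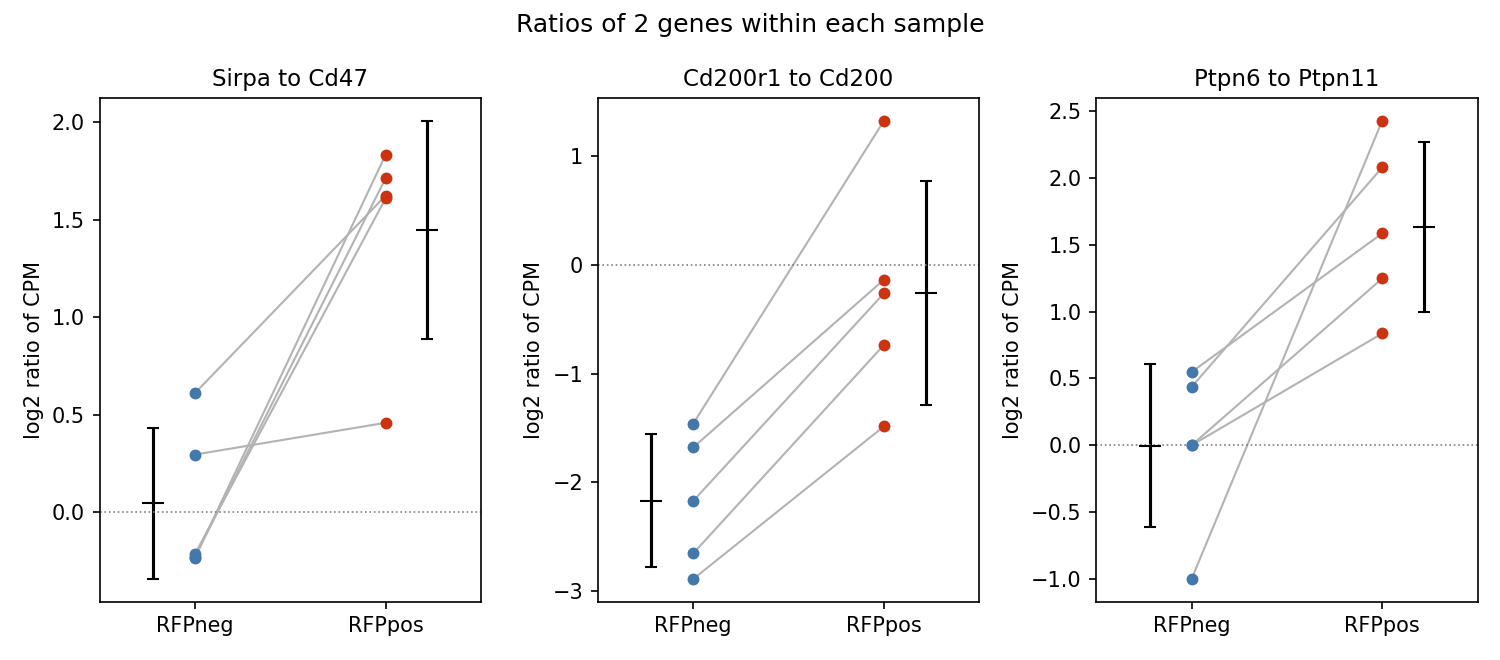
log2 ratio of the CPM of 2 genes within each sample (vertical axes), with a prior count of 2, for *Sirpa* to *Cd47*, *Cd200r1* to *Cd200* and *Ptpn6* to *Ptpn11* in RFPneg (blue) and RFPpos (red). Grey lines join the samples of 1 mouse, black bars give the mean and SD over 5 samples, and every line goes up from RFPneg to RFPpos, that of mouse 5 for *Sirpa* to *Cd47* the least.

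Further genes of the pathway were read from 5 lists in the same edgeR fit, in which 4.27% of all tested genes were higher and 7.49% lower under TMM, and 0.114% higher and 47.0% lower relative to the microglia list. Of 26 other inhibitory receptors, 24 were matched and 18 tested, with 4 higher and 2 lower in RFPpos under TMM and a median log2 fold change of 0.63. The count of 4 was 3 with DESeq2, filterByExpr and without mouse 1 or 2, and 5 without mouse 5. *Siglec15* and *Tigit* had 0 counts. The higher ones were *Vsir* (1.21, adjusted p = 6.27e-08), which encodes the checkpoint protein VISTA, *Fcgr2b* (1.26, 2.27e-06), the inhibitory Fcγ receptor, *Havcr2* (1.63, 4.71e-06), which encodes TIM-3, and *Siglecf* (2.14, 0.0196), another Siglec. Each of them was higher in 5 of 5 mice, *Siglecf* with 11 counts in RFPneg and 43 in RFPpos. The lower ones were *Mag* (−3.08), the Siglec of myelin, and *Pecam1* (−2.39), of endothelium, which stand in the marker lists of those cells too. Of the uncalled ones, *Clec4a2*, a lectin receptor of myeloid cells, was the most abundant (0.90, adjusted p = 0.132). Relative to the microglia list none of these receptors was higher in edgeR, at an unadjusted p under 0.05 or with DESeq2 or limma, and 4 were lower.

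Of 13 other ligands, 8 were tested, and none was higher in edgeR (0 also at an unadjusted p under 0.05 and with DESeq2 and limma) while 4 were lower, with a median log2 fold change of −1.69. *Cd24a* (−3.01, adjusted p = 0.00158), a don't-eat-me signal bound by Siglecs, went from 51 to 5 counts and was lower in 5 of 5 mice. The collagen genes *Col4a1* (−2.09), *Col4a2* (−2.98) and *Col1a2* (−1.40), whose proteins can bind LAIR1, were lower too, in 4, 5 and 4 of 5 mice, and *Col1a2* stands in the fibroblast list as well. The count of 4 lower ligands was 1 with filterByExpr and 3 with no filter, DESeq2, limma, no block and without mouse 1, 2, 3 or 5. *Pdcd1lg2*, *Sftpa1* and *Col17a1* had 0 counts. *B2m*, the light chain of MHC class I that inhibitory receptors read, was the most abundant uncalled ligand, at 3066 ± 526 to 3432 ± 397 CPM (0.25, adjusted p = 0.490), and was lower relative to the microglia list (−0.93, adjusted p = 7.37e-06), as were 7 of the 8 in all.

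Sialic acid enzymes, which make or trim what Siglecs bind, gave calls in both directions. Of 28, 21 were tested, and 2 were higher and 4 lower under TMM, while relative to the microglia list none was higher (0 also at an unadjusted p under 0.05 and with DESeq2 and limma) and 10 were lower, a share near the 47.0% of all genes. The median log2 fold change was −0.20, against −0.15 over all genes. *St3gal5*, which makes the ganglioside GM3, had 0.80 (adjusted p = 0.0449) and *St6galnac4*, which adds sialic acid to O-glycans, had 1.37 (adjusted p = 0.0285). Each was higher in 4 of 5 mice, and neither was called by DESeq2 or limma. Without mouse 1 the count of higher enzymes was 1, and without mouse 2, 3 or 4 it was 0. The count of 4 lower enzymes was 1 with filterByExpr and 3 with DESeq2 and without mouse 2, 3 or 4. The polysialyltransferase gene *St8sia4* (−1.94, adjusted p = 1.79e-06) and the sialyltransferase genes *St3gal1* (−3.00) and *St6galnac3* (−3.55) were lower, each in 5 of 5 mice. *St6galnac2* was lower as well, with 21 counts in RFPneg and 0 in RFPpos, where 0 allows up to 3 counts. *St3gal6*, the most abundant of the list, was not called (0.43, adjusted p = 0.197).

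Inside the cell, 18 of 19 inhibitory effector genes were tested, of which 8 were higher and 1 lower in RFPpos under TMM (median 0.74), against 1 higher and 7 lower relative to the microglia list, where the share that was lower was under the 47.0% of all genes. The count of 8 was 7 with median-of-ratios or library size scaling, filterByExpr, no filter and without mouse 1, 3 or 5, and 6 with DESeq2 and without mouse 2 or 4. *Ubash3b*, a phosphatase gene that restrains Syk signalling, had the largest change of those named, 1.89 (adjusted p = 6.58e-12), from 79.7 ± 22.3 to 282 ± 50.3 CPM, higher in 5 of 5 mice. It was also the effector called higher relative to the microglia list (0.73, adjusted p = 0.0230). *Inpp5d*, which encodes the lipid phosphatase SHIP1, had 1.31, the adaptors *Pag1* and *Grb2* had 1.40 and 0.85, the Src kinase *Lyn* that phosphorylates ITIMs had 1.19, and the phosphatase CD45, from *Ptprc*, had 0.79, each higher in 5 of 5 mice. The effector that was lower was the Src kinase gene *Fyn* (−1.39, adjusted p = 0.0110), named here after its value was seen, lower in 5 of 5 mice and not called by DESeq2 or without mouse 1, and *Rasa1*, a GTPase activator, was the most abundant uncalled one (0.43, adjusted p = 0.383). Of 16 activating partners with ITAM signalling, which inhibitory receptors oppose, 11 were tested, 6 were higher and none lower in edgeR (0 lower also at an unadjusted p under 0.05 and with DESeq2 and limma), with a median of 0.71. They were *Tyrobp* (0.71), the DAP12 adaptor of Siglec-H that also stands in the microglia list, *Fcer1g* (1.12), the Fc receptor γ chain, the adaptors *Blnk* (1.20) and *Lcp2* (0.97), the kinase *Btk* (0.89) and the exchange factor *Vav1* (1.62), and all were higher in 5 of 5 mice but *Tyrobp*, which was higher in 4. The count of 6 higher partners was 5 with median-of-ratios scaling and without mouse 1, and 4 with library size scaling, with no filter, with DESeq2 and without mouse 2, 3 or 4. The receptor *Cd300c2* was the most abundant uncalled one (0.68, adjusted p = 0.138). Relative to the microglia list none of these partners was higher (0 also at an unadjusted p under 0.05 and with DESeq2 and limma) and 1 was lower.

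**Figure D4:**
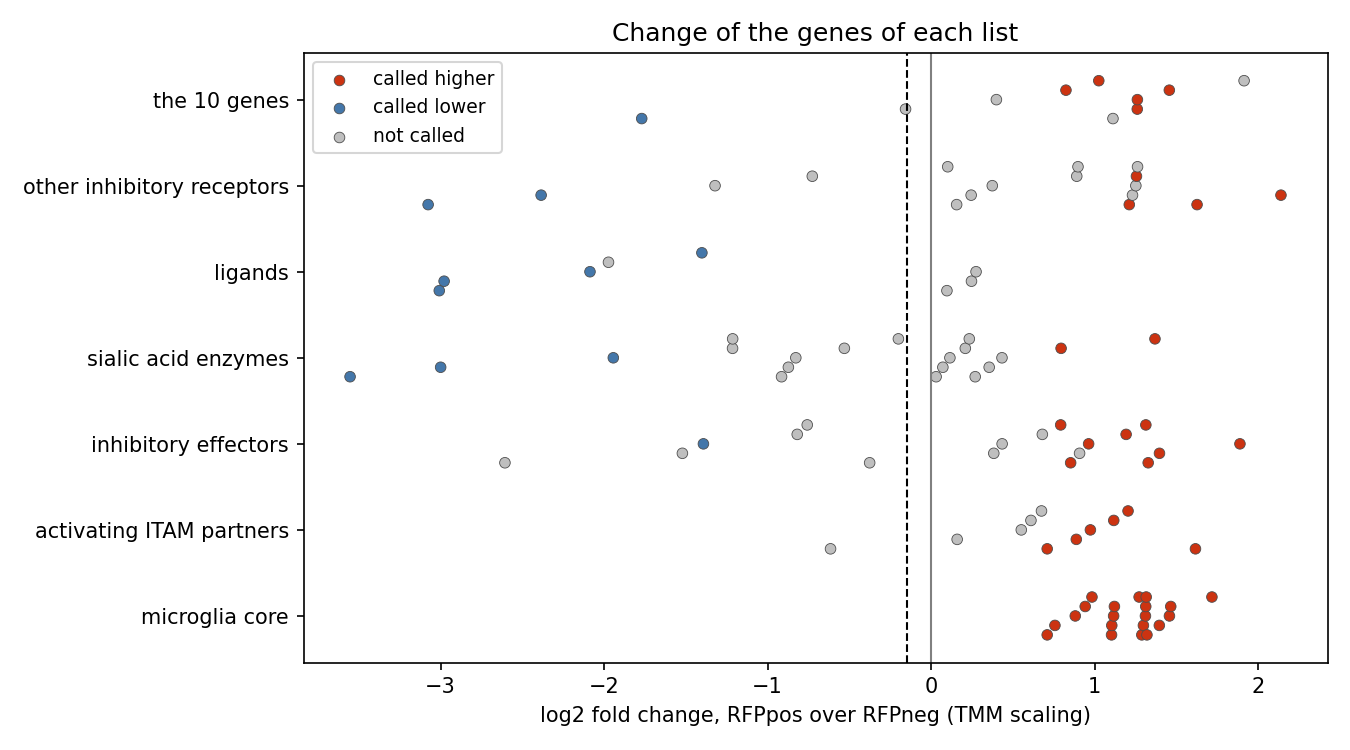
log2 fold change in RFPpos over RFPneg under TMM scaling (horizontal axis) for each tested gene of the 10 genes, of 5 pathway lists and of the microglia list (a line of points each), coloured by the call at an adjusted p under 0.05. The dashed line is the median of all tested genes, −0.15, 2 tested genes with 0 counts in RFPpos are not drawn, and calls of ligands lie on the left and calls of effectors and ITAM partners mostly on the right, where relative to the microglia list 1 effector and no partner is still called higher.

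The remaining cell type lists give further parts of the mixture in which the 10 genes were measured. No list covered glial progenitor cells. The 9 oligodendrocyte genes, with *Mbp* the most abundant and *Opalin* at 0 in RFPpos, were all lower, and summed to 3458, 1938, 1275, 1167 and 1575 CPM in RFPneg and 364, 166, 300.4, 179.7 and 198 CPM in RFPpos. Of 7 monocyte genes 6 were lower, with *Fn1* the most abundant and *Ly6c2* and *Chil3* at 0 in RFPpos (sums 560.2 ± 121 and 34.6 ± 23.3 CPM, SD, n = 5 each). Of 7 tested mural and fibroblast genes 6 were lower, with *Rgs5* the most abundant and *Kcnj8* and *Lum* at 0 in RFPpos (413 ± 114 and 71.1 ± 70.9 CPM). Of 5 tested T and NK cell genes 1, *Nkg7*, the most abundant, was lower, and *Cd3d*, *Cd3e*, *Cd3g*, *Nkg7*, *Cd8a* and *Klrb1c* were at 0 in RFPpos (78.5 ± 37.5 and 5.85 ± 8.22 CPM). Astrocyte genes, led by *Slc1a2*, were present in both populations, with 3 of 8 lower (1 with DESeq2 and 2 with limma) and sums of 3847, 5523, 4990.0, 3699 and 4428 CPM in RFPneg and 1011, 2886, 5429, 5489 and 4605 CPM in RFPpos. None of the 8 border-associated macrophage genes, led by *Mrc1*, was called in either direction by edgeR's quasi-likelihood test, DESeq2 or limma, while 1 was lower by edgeR's likelihood ratio test and at an unadjusted p under 0.05 (202 ± 17.9 and 206 ± 67.3 CPM). DESeq2 and limma called 5 and 7 monocyte genes, 4 and 5 mural and fibroblast genes and 1 and 2 T and NK cell genes lower. The part of these cell types in the levels of the 10 genes was not tested.

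By position, 5 of the 10 genes (*Siglech*, *Cd33*, *Siglece*, *Cd22* and *Lair1*) are on chromosome 7, *Cd33* and *Siglece* being 106.6 kb apart, and 3 (*Cd47*, *Cd200r1* and *Cd200*) are on chromosome 16. Called and uncalled genes stand on both. Promoter sequence was found for 8 of the 10 genes in RefSeq GRCm38.p6 (not for *Sirpa* and *Cd200r1*), and the 250 bases before each start were searched on both strands for GGAAGT, a core of sites bound by ETS factors such as PU.1, for GAGGAA, a second such core that can overlap it in GGAA, and for GGGCGG, the GC box. The motifs were chosen after the promoters and the values of the genes had been seen. GGAAGT was in the windows of *Siglech*, *Cd33* and *Ptpn6*, all higher in RFPpos under TMM, and not in those of *Lair1*, *Siglece*, *Cd22*, *Cd47* or *Cd200*, and 19.74% of 32851 promoters hold it. GAGGAA was in those of *Cd33*, *Lair1* and *Siglece* (23.25% of all promoters). GGGCGG was in those of *Ptpn6*, *Cd47* (both of its 2 starts) and *Cd200* (32.74% of all promoters). A match is a description of the letters and not a known site. Stretches of 120 bases are shown for 4 genes that rose and for the 2 ligands, with matches of 1 motif in capitals, on the gene's strand.
Siglech: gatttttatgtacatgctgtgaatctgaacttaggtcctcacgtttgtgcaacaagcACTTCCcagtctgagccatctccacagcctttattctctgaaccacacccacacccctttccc
Cd33: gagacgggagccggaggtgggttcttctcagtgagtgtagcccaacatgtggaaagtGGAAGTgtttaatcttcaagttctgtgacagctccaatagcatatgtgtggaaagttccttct
Ptpn6: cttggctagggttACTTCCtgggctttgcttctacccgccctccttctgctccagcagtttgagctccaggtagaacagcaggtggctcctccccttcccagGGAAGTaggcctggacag
Lair1: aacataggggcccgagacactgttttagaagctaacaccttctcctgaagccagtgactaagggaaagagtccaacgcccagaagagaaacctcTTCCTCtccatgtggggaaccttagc
Cd47: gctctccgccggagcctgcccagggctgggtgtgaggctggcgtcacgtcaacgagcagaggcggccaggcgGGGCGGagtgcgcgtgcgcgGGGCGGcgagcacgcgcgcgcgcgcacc
Cd200: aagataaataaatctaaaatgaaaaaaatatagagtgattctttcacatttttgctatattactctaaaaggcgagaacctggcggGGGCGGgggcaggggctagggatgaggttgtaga
The capitals mark GGAAGT in the first 3, read on the opposite strand (ACTTCC) in *Siglech* and in the first of the 2 matches of *Ptpn6*, GAGGAA on the opposite strand (TTCCTC) in *Lair1*, and GGGCGG in *Cd47* and *Cd200*. The matches begin 156 bases before the start in *Siglech*, 152 in *Cd33*, 190 and 101 in *Ptpn6*, 26 in *Lair1*, 48 and 28 in *Cd47*, counted from the first of its starts, and 34 in *Cd200*. The stretches are chr7:55767971-55768090 (plus strand), chr7:43533261-43533380 (minus strand), chr6:124738793-124738912 (minus strand), chr7:4063205-4063324 (minus strand), chr16:49855534-49855653 (plus strand) and chr16:45409054-45409173 (minus strand), in that order, and those of *Cd33* and *Cd47* lie inside the longer span that GENCODE gives these genes.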

How the data were processed

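The deposited table holds raw counts per gene, made by the authors from 3′ libraries (QuantSeq FWD) on build mm10, for 10 bulk samples. Counts that fell on no gene or on several were left out of library sizes, and 2 single-cell samples of the series were not analysed here. Genes with at least 10 counts over the 10 samples were scaled by TMM and tested in edgeR 4.0.16 (R 4.3.3) by the quasi-likelihood test with the mouse as a block, RFPpos against RFPneg, with Benjamini-Hochberg adjustment over all 12270 genes tested and calls at an adjusted p under 0.05. A second fit set library sizes to the summed counts of the 20 microglia genes. Log2 ratios used CPM with a prior count of 2 and a two-sided exact permutation test. Alternatives were median-of-ratios and library size scaling, other filters, edgeR's likelihood ratio test, DESeq2 1.42.0, limma 3.58.1 with voom weights, no block, thresholds on the fold, a prior count of 0.5, the microglia list without its 5 most abundant genes, and leaving out each mouse. The 10 genes and all lists were chosen with earlier results of these data known. Genes named from a pathway list are those called, or the 6 called genes of highest mean CPM where more were called, and the uncalled gene of highest mean CPM. Of the microglia list the lowest and highest log2 fold change are named, and of each cell type list the most abundant gene and those at 0. Symbols and positions are from GENCODE M21 on GRCm38. A count of 0 is read as allowing up to 3 counts, which covers counting error only.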

Additional observations from a re-analysis of the deposited data

Results flagged for a closer look

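The log2 ratio of *Sirpa* to *Cd47* in the RFPpos sample of mouse 5 was 0.46, far below the other 4 RFPpos samples, which lay between 1.61 and 1.83. The same sample had the highest share of counts on no gene, 48.6%, and the part of this in the ratio was not tested. The summed level of the plasmacytoid dendritic cell list in the RFPpos sample of mouse 1 was 854 CPM, below the other 4 at 1101 to 1188 CPM. Each was marked because the gap to the nearest sample, as a share of the range of its group of 5, was above the 95% critical value of Dixon's test. Chance marks about 1 in 20 groups, and 60 groups were examined, of which 2 were marked.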

How the results depend on the processing

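The counts of 5 higher and 1 lower among the 10 genes were the same with median-of-ratios and library size scaling, both other filters, the likelihood ratio test, DESeq2, limma, no block and without each mouse in turn. Scaling to the summed microglia genes, which by construction sets the change of their sum to 0, gave 0 higher and 2 lower, 14 and 5767 over all genes, 0 and 4 of the other inhibitory receptors, 7 lower ligands, 0 and 10 sialic acid enzymes, 1 and 7 effectors, 0 and 1 ITAM partners and 1 higher microglia gene. Under it the sign turned for *Cd33* (−0.35), *Siglece* (−0.0093), *Lair1* (−0.14) and *Cd200r1* (−0.75).

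The filter of edgeR's filterByExpr, which left 4210 genes and no value for *Siglece*, *Cd22* and *Cd200r1*, gave 489 lower genes, 1 lower ligand, and 0 higher and 1 lower sialic acid enzymes. DESeq2 gave 317 higher and 547 lower genes, 0 higher sialic acid enzymes and 0 lower effectors. Higher sialic acid enzymes numbered 1 with median-of-ratios scaling, library size scaling, no filter or no replicate block, 0 with limma, and 0 to 2 without each mouse in turn, where lower effectors numbered 0 to 1. With an absolute log2 fold change above 1, 343 genes, 1 sialic acid enzyme, 5 effectors and 3 ITAM partners were higher, and with an unadjusted p and that fold 1386 genes were lower and 1 enzyme, 5 effectors and 3 partners were higher. The cause of these differences was not tested.

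Relative to the microglia list, the sign turned for *Siglech* without mouse 4 (−0.0084), within −0.0084 to 0.17 over the mice left out, for *Ptpn6* without mouse 1 (−0.0258, with −0.0258 to 0.53 over the mice), and for *Siglece* with DESeq2 (0.0063) and without mouse 1, 2 or 3 (0.03, 0.31 and 0.24, with −0.39 to 0.31 over the mice). Without the block by mouse (no pairing), the exact permutation test over all assignments of the 10 samples gave p = 0.0159 for *Sirpa* to *Cd47* (1.40), 0.0159 for *Cd200r1* to *Cd200* (1.91) and 0.00794 for *Ptpn6* to *Ptpn11* (1.64). These values set the paired design aside, and the paired exact permutation test gave p = 0.0625 for each ratio. *Siglece*, *Cd22* and *Cd200r1* had 26, 33 and 38 counts over all samples, and their intervals are wide.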
